A study of Mus musculus with 6 samples.

Results

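Transcript levels of 8 nuclear genes that build or serve the mitochondrial translation and folding machinery were compared between control and Isl1 knock-in mouse retinas. The genes were Mrpl15, Mrpl30 and Mrpl44 of the large mitochondrial ribosomal subunit, Mrps9 and Mrps14 of the small subunit, Mars2, which charges mitochondrial methionine tRNA, and the chaperonin genes Hspd1 and Hspe1. They were chosen by name and function, and all 8 had a row among the 1140 complete rows of chromosome 1 that were analysed. All 8 were also among the 646 rows that the authors had tested.

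Both groups were whole retinas of C57BL/6 mice at embryonic stage E15.5, and each group had 3 libraries of 8 pooled retinas. The control retinas were T2fx/+ and are called wild type by the submitters, and the knock-in retinas were T2Isl1/+, with Isl1 placed at the Tbr2 (Eomes) locus. Isl1 encodes a transcription factor that retinal ganglion cells need during development, and the comparison asks which retinal genes differ when it is expressed from Tbr2. The deposited values are 1 FPKM estimate per gene and genotype (fragments counted per kilobase of transcript and scaled to library depth), so no SD or replicate check can be given and library depth is unknown. Isl1 and Eomes were not analysed here, so the knock-in itself was not checked on these values.

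Mitochondria keep a small genome of their own that encodes core subunits of the respiratory chain and the RNAs of their ribosome. The proteins of that ribosome, the tRNA synthetases and the folding machinery are encoded in the nucleus, made in the cytosol and imported. Hspd1 forms the barrel-shaped chaperonin of the mitochondrial matrix and Hspe1 forms the lid that closes it, and newly imported proteins fold inside. All 8 are housekeeping genes, and values from whole retinas do not show which retinal cells express them.

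Hspd1 and Hspe1 stand head to head and are transcribed away from each other, and a stretch between RefSeq starts of the pair is shown here. RefSeq (GRCm38.p6) held start-site windows for 7 of the 8 genes, from 250 bases before to 50 bases after each start. Hspd1 had 2 windows, with starts at 55088243 and 55087932, and Hspe1 had 1, with its start at 55088148. The stretch lies ahead of the Hspd1 start at 55087932, and inside the gene when read from 55088243. In the capitals below, 4 heat shock units alternate without a gap as TTCNNGAA, any 2 bases and TTCNNGAA again, the letters bound by heat shock factors. The stretch is printed as each gene reads it, at chr1:55088053-55088082, and positions count from the start site as 0.
Hspe1, plus strand, capitals at -89 to -72 from 55088148: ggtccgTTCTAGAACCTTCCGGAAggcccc
Hspd1, minus strand, capitals at -144 to -127 from 55087932: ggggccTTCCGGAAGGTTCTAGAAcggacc
The joined pattern occurred in 5 of 32851 RefSeq windows of this length (0.0152%), namely those of Hspd1, Hspe1, Arpc2, Fam149a and Chordc1. The Hspd1 and Hspe1 windows hold it on the same bases, so this stretch is counted in both. A run of 4 units in the other order, beginning with GAA, was not searched, so the share does not cover all 4-unit elements. The single pattern TTCNNGAA, which reads the same on both strands, occurred in 8.52% of windows and in those of Hspd1 and Hspe1 among the members. The complementary spacing GAANNTTC occurred in 7.86% of windows and in the same 2 members. An exon of an annotated Hspd1 transcript runs across this stretch in GENCODE M21, so the stretch is transcribed where that transcript is used. A match of letters is a description of the sequence and does not show that a factor was bound in these retinas.

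The GC content of the members' windows ran from 42.3% in Mrpl44 to 73.3% in Hspd1, against a median of 52.7% over all windows. The letters GCGC, any 2 bases and GCGC again, an approximation of the site of NRF1, an activator of nuclear genes for mitochondrial proteins, were searched on both strands, on which they read alike. They occurred in 6 of the 7 members with a window, Hspd1, Hspe1, Mars2, Mrpl30, Mrpl44 and Mrps9, against 6.23% of all windows. The count of 6 is per gene and the share is per window, and Hspd1 had 2 windows. The Hspe1 matches are the same bases as the Hspd1 matches near the start at 55087932, since these windows overlap. These shared matches lie in a run of alternating G and C. The 4 matches outside the chaperonin pair are shown in capitals, each in a run of 30 bases on the gene's own strand.
Mrpl30, chr1:37890384-37890413, capitals at -83 to -74: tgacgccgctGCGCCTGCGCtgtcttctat
Mrpl44, chr1:79775973-79776002, capitals at -35 to -26: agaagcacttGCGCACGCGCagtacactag
Mrps9, chr1:42851218-42851247, capitals at -5 to 4: tgggaggtctGCGCCTGCGCagtctccagg
Mars2, chr1:55237169-55237198, capitals at 2 to 11: ccgtccagctGCGCACGCGCcctttcccgt
The ETS-type letters CCGGAAG, searched on both strands, occurred in 3 of the 7 members, Mars2, Hspd1 and Hspe1, and in 8.86% of all windows. In the chaperonin pair these letters lie on the same bases in both genes and overlap the heat shock units shown above. The CCAAT box, searched on both strands, was found in Hspd1, Mars2 and Mrps9 and in 37.4% of all windows. For the plus-strand genes Mars2 and Mrps14, the 100 bases before the start overlap no annotated exon and show the contrast between a window with several of these patterns and one with none.
Mars2, chr1:55237077-55237176: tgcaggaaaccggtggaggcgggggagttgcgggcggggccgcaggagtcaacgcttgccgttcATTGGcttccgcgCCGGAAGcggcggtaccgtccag
Mrps14, chr1:160195115-160195214: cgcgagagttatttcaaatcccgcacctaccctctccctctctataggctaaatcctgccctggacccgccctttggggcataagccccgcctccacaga
The Mars2 capitals mark the CCAAT box on the reverse strand and the ETS-type letters. The YY1-type letters AAGATGGCG, searched on both strands, were in none of the 7 and in 1.40% of all windows.

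None of the 8 genes was called different between the genotypes at a q-value under 0.05 per the authors' deposited table, where 1.55% of the tested rows were called, 0.155% higher and 1.39% lower. All 8 had a higher value in T2Isl1 than in T2fx per the authors' deposited table, by 1.49% to 25.8%. Among the 646 tested rows the share above control was 54.6%, and it was 71.5% and 71.3% in the 2 groups of shortest transcripts, where 6 of the 8 genes fell. The median log2 fold change of the 8 genes was 0.15, and that of all tested rows was 0.01. No test of the common direction was made, and the 8 genes are not replicates of each other. Each of the 8 genes had a q-value of 0.9997 per the authors' deposited table, the value of 629 of the 646 tested rows (97.4%), these 8 included. At an unadjusted p-value under 0.05, 1 of the 8 was called, Mrpl30, against 3.72% of tested rows, or 1.08% counting higher values only.

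**Figure D1:**
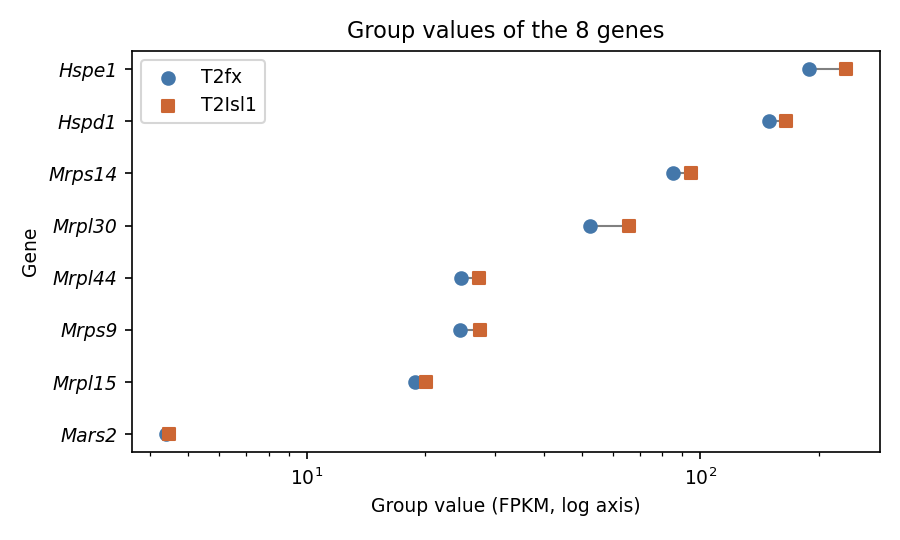
Group values of the 8 genes per the authors' deposited table, in FPKM on a log axis, with 1 circle for T2fx and 1 square for T2Isl1 per gene and no error bars, since there is 1 estimate per group. Each square lies to the right of its circle, most visibly for Mrpl30 and Hspe1, and the levels run from 4.39 FPKM for Mars2 in T2fx to 234 FPKM for Hspe1 in T2Isl1.

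The chaperonin genes were the most abundant of the 8. Hspe1 (chromosome 1, 55088132 to 55091307, plus strand, mm10), the lid subunit, had 188.7 FPKM in T2fx and 234 FPKM in T2Isl1 per the authors' deposited table. That is a log2 fold change of 0.31 with an unadjusted p of 0.156 per the authors' deposited table. Hspd1 (55077835 to 55088243, minus strand), the barrel subunit, had 149 and 165 FPKM per the authors' deposited table, with a log2 fold change of 0.14 with an unadjusted p of 0.303. By level they ranked 12 and 17 of 646 in T2fx and 10 and 13 in T2Isl1. Thus both sat near the top of the chromosome's transcripts in either genotype, and neither difference passed the authors' test.

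The balance between lid and barrel transcripts was also compared, as the genes are neighbours and FPKM is scaled by length. There were 1.26 FPKM of Hspe1 per FPKM of Hspd1 in T2fx and 1.42 in T2Isl1, a log2 difference of 0.16. No test of this difference can be made on 1 value per group. The pair supplied 61.7% of the summed FPKM of the 8 genes in T2fx and 62.5% in T2Isl1, so its share of the set was nearly the same. The authors' deposited table gives the pair 1 common interval, and their annotated ends overlap by 112 bases on opposite strands. Whether counting used the strand is not stated in the labels or file headers, so reads in the overlap cannot be assigned with certainty.

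Among the large-subunit genes, Mrpl30 had the highest fold change of the 8, while in FPKM the differences of Hspe1 (45.2) and Hspd1 (15.8) exceeded its 13.5. Mrpl30 (37890477 to 37898535, plus strand), a protein of the large subunit, had 52.4 FPKM in T2fx and 65.9 FPKM in T2Isl1 per the authors' deposited table. The log2 fold change was 0.33, with an unadjusted p of 0.0348, and 17 of the 646 tested rows (2.63%) had a log2 fold change at least as high per the authors' deposited table. The authors' deposited table gives Mrpl30 the same interval as Lipt1 and Mitd1. Mitd1, a cytokinesis gene on the other strand whose annotated start lies 65 bases from that of Mrpl30, had 7.95 and 8.78 FPKM, a log2 fold change of 0.14, per the authors' deposited table. Lipt1, a lipoyl transfer enzyme of mitochondria, had 2.99 and 2.90 FPKM, -0.05 on the log2 scale, per the authors' deposited table. So the 3 genes read from this interval had different fold changes, and none was called.

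Mrpl15 and Mrpl44 differed less. Mrpl15 (4773206 to 4785739, minus strand), another large-subunit protein, had 18.8 and 20.1 FPKM in T2fx and T2Isl1 per the authors' deposited table, with a log2 fold change of 0.09 with an unadjusted p of 0.464. Mrpl44 (79776018 to 79781445, plus strand), a large-subunit protein with a fold related to ribonuclease III, had 24.7 and 27.4 FPKM per the authors' deposited table. Its log2 fold change was 0.15, with an unadjusted p of 0.625 per the authors' deposited table. Mrpl44 overlaps the start of the opposite-strand gene Wdfy1 by 126 bases, and Wdfy1 had 27.7 and 28.7 FPKM per the authors' deposited table. Mrpl15 overlaps the same-strand annotation Gm37144 by 1150 bases, and Mrps9 overlaps the opposite-strand small RNA gene Gm23126 by 134 bases. The values of these 3 genes are uncertain to the extent that reads of the overlapping genes could enter them.

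The small-subunit genes had nearly equal fold changes at different levels. Mrps14 (160195215 to 160202170, plus strand), a protein of the small subunit, had 85.0 FPKM in T2fx and 94.4 FPKM in T2Isl1 per the authors' deposited table, with a log2 fold change of 0.15 with an unadjusted p of 0.322. Mrps9 (42851233 to 42905683, plus strand), another protein of that subunit, had 24.5 and 27.5 FPKM per the authors' deposited table, 0.17 on the log2 scale with an unadjusted p of 0.182. Summed over the 5 ribosomal genes, the level was 205 FPKM in T2fx and 235 FPKM in T2Isl1, a ratio of 1.15. Subunits of this ribosome are assembled in fixed numbers, but their transcripts spanned 18.8 to 85.0 FPKM in T2fx per the authors' deposited table.

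Mars2 was the least abundant of the 8 and had the lowest fold change as deposited, though not after centring on its length group (0.10, against 0.06 for Mrpl44). Mars2 (55237177 to 55248470, plus strand), the methionyl-tRNA synthetase of mitochondria, had 4.39 FPKM in T2fx and 4.45 FPKM in T2Isl1 per the authors' deposited table. The log2 fold change was 0.02 with an unadjusted p of 0.897 per the authors' deposited table. From Mars2 to Hspe1 the levels spanned 43.0-fold in T2fx and 52.5-fold in T2Isl1. The order from low to high was Mars2, Mrpl15, Mrps9, Mrpl44, Mrpl30, Mrps14, Hspd1 and Hspe1 in T2fx. In T2Isl1 only Mrps9 and Mrpl44 exchanged places, at 27.5 and 27.4 FPKM per the authors' deposited table. Without values per library, it cannot be said which neighbours in this order differ beyond their spread.

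**Figure D2:**
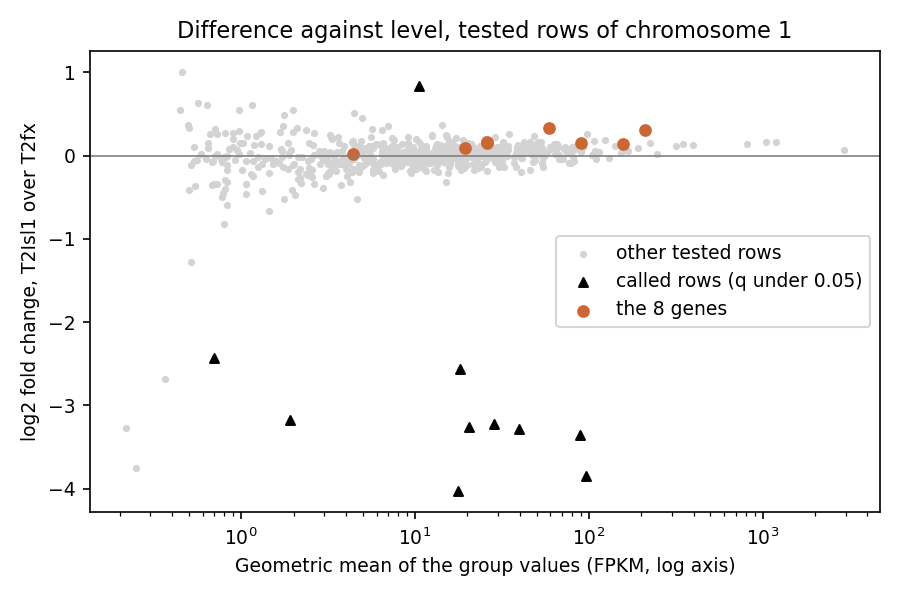
The log2 fold change of T2Isl1 over T2fx against the geometric mean of the group values (FPKM, log axis) for the 646 tested rows, with the 8 genes as large orange points and called rows as black triangles. The 8 genes lie between 0.02 and 0.33, within the band of uncalled rows, while 9 called rows lie below -2.

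Transcript length was set beside the fold changes, because short transcripts on this chromosome had higher fold changes than long ones. With 611 tested rows split by the longest annotated transcript into 5 groups of nearly equal size, the shortest group had a median log2 fold change of 0.09 and the longest of -0.08. Hspe1, Mrpl30 and Mrpl44, with transcripts of 964, 1757 and 1424 bases, fell in the shortest group. Mrps9, Hspd1 and Mrps14 fell in the next, where the median was 0.04. Mrpl15 and Mars2 fell in the long groups 4 and 5. After subtraction of its own group's median, each of the 8 genes was still above 0, and the median of the 8 was 0.11. For Mrpl15 and Mars2 this depends on their longest annotated transcripts (4600 and 11294 bases), which need not be the ones measured. Before centring they stood at 0.09 and 0.02, against medians of 0.09 and 0.04 in the 2 shortest groups. The part of length in the members' values was not tested further.

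**Figure D3:**
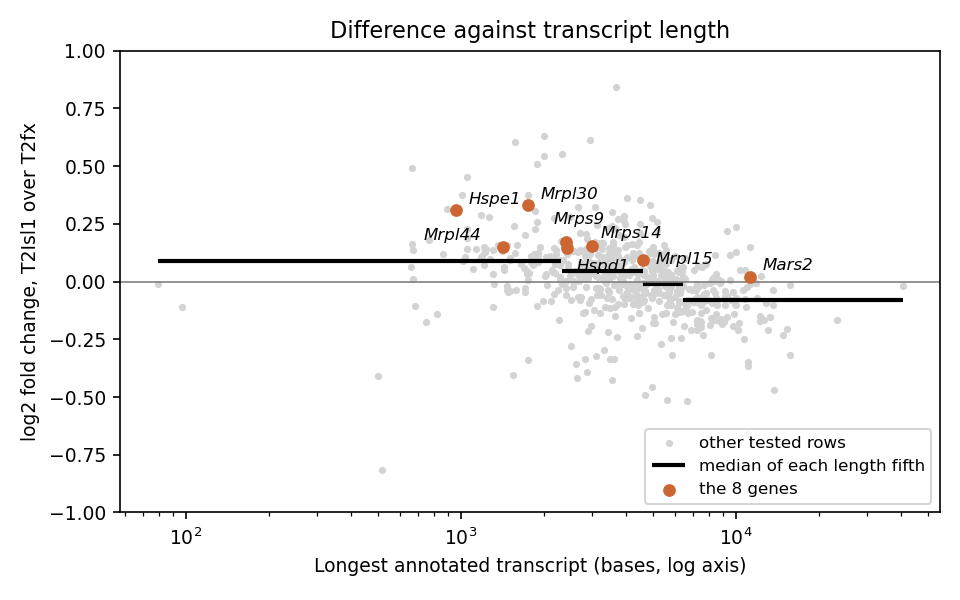
The log2 fold change of T2Isl1 over T2fx against the longest annotated transcript (bases, log axis), with the 8 genes named, other tested rows in grey and a black bar for the median of each of 5 length groups. Each of the 8 genes lies above the bar of its group, and 13 rows with an absolute log2 fold change over 1 are outside the axis.

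The rest of the mitochondrial translation machinery was read from lists of genes, of which few members lie on this chromosome. Of 50 large-subunit and 33 small-subunit genes, the only rows were the 3 and 2 described above. Of 49 translation factors and RNA-handling genes, 2 were tested and 0 were called. Fastkd2, an RNA-binding protein needed for assembly of the large subunit, had 6.88 and 7.95 FPKM per the authors' deposited table, with a log2 fold change of 0.21 with an unadjusted p of 0.189. Mterf4, which works with a methyltransferase on the ribosomal RNA, had 5.71 and 6.31 FPKM per the authors' deposited table, 0.14 on the log2 scale with an unadjusted p of 0.449. Timm17a, a subunit of the inner-membrane import channel and the 1 tested of 28 import genes, had 48.9 and 51.3 FPKM per the authors' deposited table, 0.07 on the log2 scale. These 3 values were also above control and did not pass.

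Cytosolic counterparts were looked at to see whether they lay on the same side. The cytosolic ribosomal protein genes Rpl7, Rpl31 and Rpl37a, outside the lists, were above control and not called. Their log2 fold changes were 0.16, 0.14 and 0.16 per the authors' deposited table. Of 3 tested cytosolic tRNA synthetase genes 0 were called, 1 was above and 2 were below control per the authors' deposited table. Farsb, a subunit of the phenylalanine enzyme, had 29.9 and 32.2 FPKM, a log2 fold change of 0.11 per the authors' deposited table. Dars, the aspartate enzyme, had 49.95 and 48.2 FPKM, and Eprs, the joint glutamate and proline enzyme, had 31.1 and 28.9 FPKM per the authors' deposited table. The median log2 fold change of the 3 synthetase genes was -0.05. Of the cytosolic chaperone list, Bag2, a co-chaperone of the heat shock proteins, had 8.44 and 9.89 FPKM per the authors' deposited table. Dnajb2, a neuronal J-domain protein, had 25.3 and 26.6 FPKM per the authors' deposited table, and 0 of the list were called. Both chaperone genes were above control, with log2 fold changes of 0.23 and 0.07 per the authors' deposited table. The median of this list was 0.15. The difference between mitochondrial and cytosolic genes was not tested.

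Some tissue markers, chiefly those of lens, were lower in T2Isl1 in the same comparison. Of the lens list, 7 of 7 tested genes were called lower, with a sum of 1038 FPKM in T2fx and 93.6 FPKM in T2Isl1, and Lgsn was listed at 0 in both. Of the mesenchymal and vascular list 1 of 6 tested genes was called, lower, and the sum went from 38.1 to 29.3 FPKM. The 7 skeletal muscle rows summed to 4.20 and 1.44 FPKM, with 1 of 3 tested genes called lower and Chrnd listed at 0 in both. The blood and macrophage rows summed to 0.152 and 0.139 FPKM. The retinal genes Hes6, Fzd5 and Crb1 were expressed in both groups, at 380 and 414, 68.0 and 66.2, and 14.0 and 12.9 FPKM per the authors' deposited table. The part of lens and connective tissue in the members' values was not tested, and in whole retinas a change in the share of a cell type and a change of RNA per cell cannot be told apart.

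Hspd1, Hspe1 and Mars2 lie on both sides of Rftn2, a raftlin gene and the only tested row called higher in T2Isl1. Rftn2 had 7.84 and 14.1 FPKM per the authors' deposited table, with a log2 fold change of 0.84. The row of Mars2 begins 10.3 kb from that of Rftn2. Mob4, between Rftn2 and the chaperonin pair, had 44.7 and 52.9 FPKM, or 0.24 in log2, per the authors' deposited table. Coq10b, a coenzyme Q binding protein of mitochondria 5.13 kb on the other side of the pair, had 9.36 and 10.0 FPKM, and Sf3b1, a splicing factor, had 55.0 and 54.1 FPKM per the authors' deposited table. None of these neighbours was called. Away from Rftn2 on the side of the pair, the log2 fold changes were 0.24 for Mob4, 0.31 for Hspe1, 0.14 for Hspd1, 0.10 for Coq10b and -0.02 for Sf3b1 per the authors' deposited table. A relation of these values to the distance from Rftn2 was not tested.

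**Figure D4:**
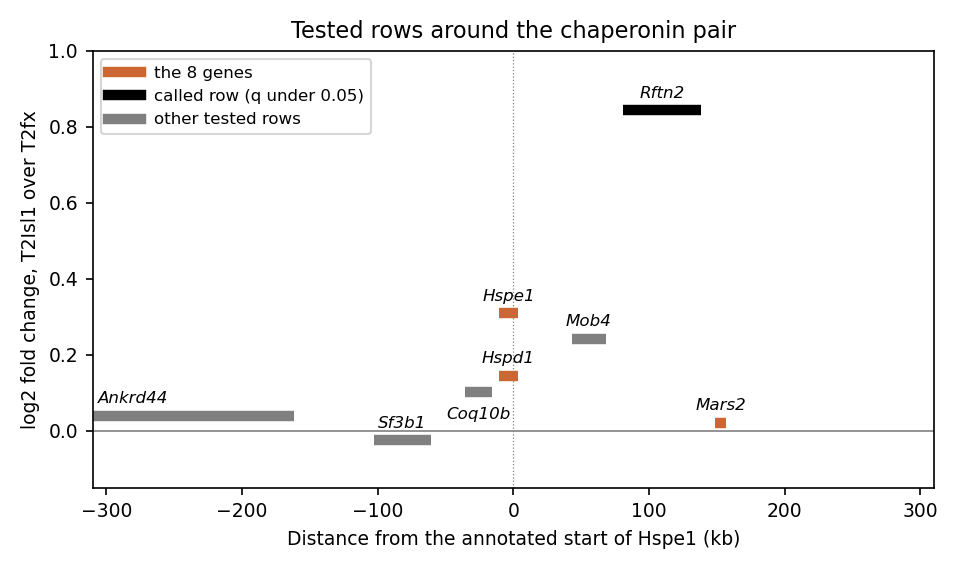
The log2 fold change of T2Isl1 over T2fx for the 8 tested rows within 300 kb of the annotated start of Hspe1, each drawn as a bar over the interval the row covers (kb from that start). Rftn2 stands at 0.84, Hspe1 at 0.31 and Hspd1 at 0.14, and Mars2, on the other side of Rftn2, at 0.02.

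For each of the 8 genes, the tested row outside the 8 most alike in both group values was found by distance on the log2 scale over these 2 values. The nearest to Hspd1 was Idh1, a cytosolic isocitrate dehydrogenase, at 156 and 164 FPKM per the authors' deposited table (distance 0.06). The nearest to Hspe1 was Eef1b2, a translation elongation factor subunit, at 213 and 237 FPKM per the authors' deposited table (distance 0.18). Ptp4a1 was nearest to Mrps14, Nme7 to Mrpl15, Stk25 to Mrpl30 and 1700066M21Rik to Mars2, with distances of 0.03, 0.03, 0.16 and 0.03. Outside the 8 genes, Tram1 was nearest to both Mrpl44 and Mrps9. Hspe1 and Mrpl30 had the most distant nearest rows, and the likeness rests on only 2 values per gene.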

How the data were processed

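Total RNA of 6 libraries was sequenced. Per the submitters' processing notes, the tools were CASAVA, TopHat2 2.1.1 and Cufflinks 2.1.1, and the build was mm10; the gene annotation was not given in the labels or file headers. The table follows the layout of Cuffdiff, with replicates combined. Its group values were read as FPKM deposited by the authors, a unit inferred from the tool. The log2 fold change in the authors' table is T2Isl1 over T2fx without a pseudocount, and the ratio of the group values matched it to within 1.06e-05. The authors' test score, p-value and q-value were used as deposited, per the file headers. 1 incomplete row was left out. Starts count from 0 in the table, so 1 was added.

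No new test was made, since values per library were not used here; calls are the authors' q-value under 0.05. The labels do not say whether pools shared litters. Gene positions and transcript lengths come from GENCODE M21 (mm10), found for 94.6% of tested rows. RefSeq start-site windows were searched for letter patterns. The named genes were the 8 members, the row nearest each in value, neighbours, list genes and cytosolic ribosomal protein genes. Members and the 14 gene lists were chosen with earlier results of these data known. Computations used Python 3.11.15 with pandas 2.3.3. The Benjamini-Hochberg adjustment and the counts and medians of gene groups were tested on simulated data, and the other steps were not. Alternatives were other thresholds, a floor and a pseudocount of 1 FPKM, and centring on all rows or on length groups.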

Additional observations from a re-analysis of the deposited data

How the results depend on the processing

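At an unadjusted p-value under 0.05, 1 of the 8 genes was called (Mrpl30, higher) instead of 0, and 24 of the 646 tested rows instead of 10, 7 higher and 17 lower. At a q-value threshold of 0.1, with a floor of 1 FPKM, and with Benjamini-Hochberg adjustment over the tested rows alone, 0 of the 8 were called. The median log2 fold change of the 8 genes ran from 0.11, centred on length groups, to 0.17, as a mean. All 8 stayed above 0 with a pseudocount of 1 FPKM, which cannot change a sign, and after both centrings. The ratio of summed levels was 1.17 as deposited and 1.14 without the chaperonin pair. With no replicate spread, single values were compared with 0.088 on the log2 scale, the median absolute log2 fold change of tested rows. The length-centred values of Mrpl30 (0.24), Hspe1 (0.22) and Mrpl44 (0.06) moved by slightly more than that. Each moved by the same 0.089, the median of the length group they share, so this is not a separate result for each gene. Mars2 went from 0.02 to 0.10 when length-centred, which left Mrpl44 the lowest of the 8. The pseudocount and the centring on all rows could hardly move a value by that much. Leaving out replicates was not run, since the table holds no values per library. No paired analysis was possible because replicates of each group are merged in the table, although the sample titles number them.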

Other observations

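Abundant transcripts of this chromosome were mostly above control. Of 28 other rows with at least 100 FPKM in either group, a level chosen after the values were seen, 23 were above and 5 below control, with a median log2 fold change of 0.07. Cryga, Cryge and Crygd, called lower, are 3 of the 5 below. Requiring that level in both groups, which removes these crystallins by construction, left 21 above and 2 below, with log2 fold changes from -0.04 to 0.19. Hspd1 lies inside that range at 0.14 and Hspe1 above it at 0.31 per the authors' deposited table.

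Equal fold changes carried different weight in the authors' test. Mrpl44 and Mrps14 both had a log2 fold change of 0.15, but the test score was 0.27 for Mrpl44 and 0.57 for Mrps14 per the authors' deposited table. Per unit of log2 fold change the score was 1.80 for Mrpl44 and 2.65 for Hspe1, the lowest of the 8, and 3.45 to 4.49 for the other 6. Mrpl44 and Hspe1 both overlap an opposite-strand gene at their start, as does Hspd1, which had 4.10. The part of the overlap in these scores was not tested.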
